A study of Mus musculus with 4 samples.

Results

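The 87 genes described here make up, with few exceptions, the families of membrane carriers for amino acids, peptides, sugars and related solutes. They are all genes on the array whose current symbol starts with Slc1a, Slc2a, Slc3a, Slc5a, Slc6a, Slc7a, Slc15a, Slc36a, Slc38a or Slc43a, out of 16390 named genes, and each was measured by 1 probe. The rule works on names alone, so it also takes in 2 genes that are no carriers: Slc7a6os and Slc6a19os, which are named for lying opposite Slc7a6 and Slc6a19.

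Expression was measured in sorted cells of the mouse small intestine, with 1 array in each of 4 groups. Dclk1- normal cells came from 1 Dclk1CreERT2/+ mouse and Dclk1+ normal cells from 2 pooled Dclk1CreERT2/+ mice, all aged 26 weeks. Dclk1- tumor cells came from 1 Dclk1CreERT2/+; ApcMin/+ mouse aged 17 weeks, and Dclk1+ tumor cells from 7 pooled mice of that genotype aged more than 16 weeks. All mice were male, and all carried the CreERT2 allele at 1 copy of Dclk1, so that no sample is wild type at that gene. Dclk1 marks tuft cells, the chemosensory cells of the gut epithelium, and ApcMin starts adenomas through Wnt signalling. The labels describe a GFP sort for the Dclk1+ tumor cells only; for the other 3 groups they give no gate, and the genotypes name no GFP allele.

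Nutrient uptake in the small intestine runs through 2 membranes of the enterocyte. At the brush border, sodium-coupled carriers such as Slc5a1 for glucose and Slc6a19 for neutral amino acids, the exchanger made of Slc3a1 and Slc7a9 for cystine and basic amino acids, and the peptide carrier Slc15a1 bring nutrients in. At the basolateral side Slc2a2 and the pair of Slc7a7 and Slc3a2 release them to the blood. Other members feed the cell itself: Slc2a1 takes up glucose, Slc1a5 glutamine, Slc6a9 glycine and Slc7a5 large neutral amino acids, and Slc38a9 senses arginine at the lysosome.

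Levels are given as normalised intensity, the brightness of a spot after background correction, an added offset of 50 and quantile normalisation, in arbitrary units. An empty probe therefore reads a little above 50, and differences of dim probes are compressed. A probe counted as above background where its spot lay more than 2 SD over the mean of the blank spots on that array. A gene was called higher or lower when the 2 arrays differed at least 2-fold and it was above background on at least 1 of them. Because every group has a single array, there is no spread between animals, no test and no p-value, and each difference is one between 2 arrays. The number of arrays limits the precision.

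The sort labels were checked on their marker genes. Dclk1 itself read 512 and 193 in Dclk1+ and Dclk1- normal cells and 99.5 and 61.6 in the matching tumor cells, so within each tissue it ran with the label, while the Dclk1- normal array read above the Dclk1+ tumor array. The tuft cell channel Trpm5 read 8067 and 109 in normal cells and 1939 and 66.4 in tumor. The epithelial marker Epcam was above background on all 4 arrays.

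Of the 87 genes, 35 were above background on all 4 arrays, 39 on 1 to 3 arrays and 13 on none. The members above background numbered 44 in Dclk1- tumor cells (50.6%), 46 in Dclk1+ tumor cells (52.9%), 63 in Dclk1- normal cells (72.4%) and 61 in Dclk1+ normal cells (70.1%), fewer on both tumor arrays. Over all named genes the share differed less, from 66.6% in Dclk1- tumor to 73.7% in Dclk1+ normal. The cut-off was set on each array and lay higher in tumor. In scanner units it was 25.7 and 24.4 in Dclk1- and Dclk1+ tumor cells, and 23.7 and 22.2 in normal cells. Near the cut-off, Slc2a13 had a spot of 24.0 in Dclk1+ tumor, not above background, and 22.6 in Dclk1+ normal, above it. These counts alone therefore do not show lower expression in tumor. The Slc3a family was above background throughout (2 of 2 genes on all 4 arrays). So were 6 of 11 Slc2a, 5 of 9 Slc38a and 5 of 12 Slc5a genes, whereas 0 of 4 Slc36a and 0 of 3 Slc43a genes were. The 13 genes not above background on any array include the basic amino acid carrier Slc7a1, the proton-coupled amino acid carrier Slc36a1 and the Slc5a1 relative Slc5a4b, and their probes give no level here.

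**Figure D1:**
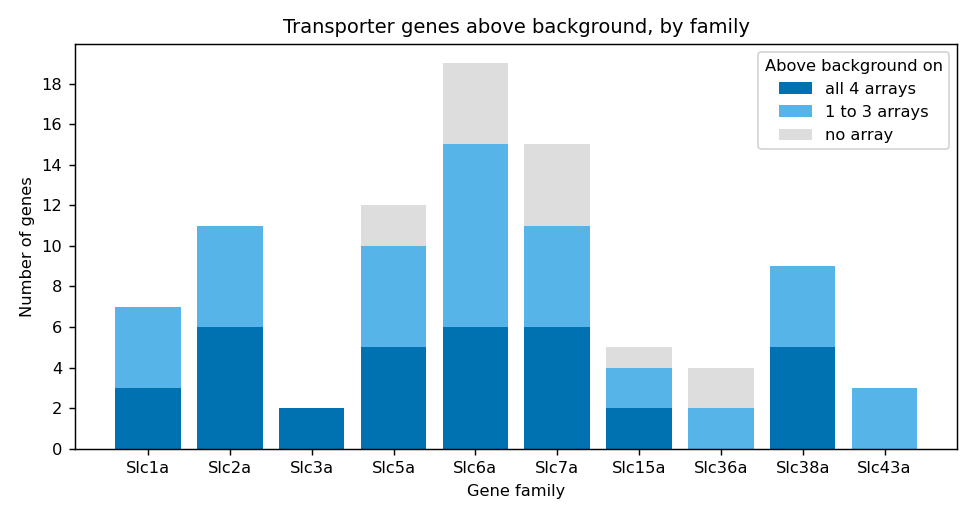
Number of genes in each transporter family that were above background on all 4 arrays, on 1 to 3 arrays or on no array, as stacked bars starting at 0. Slc6a, the largest family with 19 genes, has 6 above background on all 4 arrays and 4 on none.

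Among the 74 genes above background on at least 1 array, 14 (18.9%) spanned 2-fold or more between their lowest and highest array, against 21.5% of all 13467 such genes, and 49 spanned less than 0.5 on the log2 scale. The highest of the 4 values lay in Dclk1- normal cells for 29 of the 74 (39.2%, against 26.4% of all genes) and in Dclk1+ tumor cells for 7 (9.46%, against 20.1%). Of the 14, 13 were called in at least 1 comparison; the other was the peptide carrier Slc15a2.

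**Figure D2:**
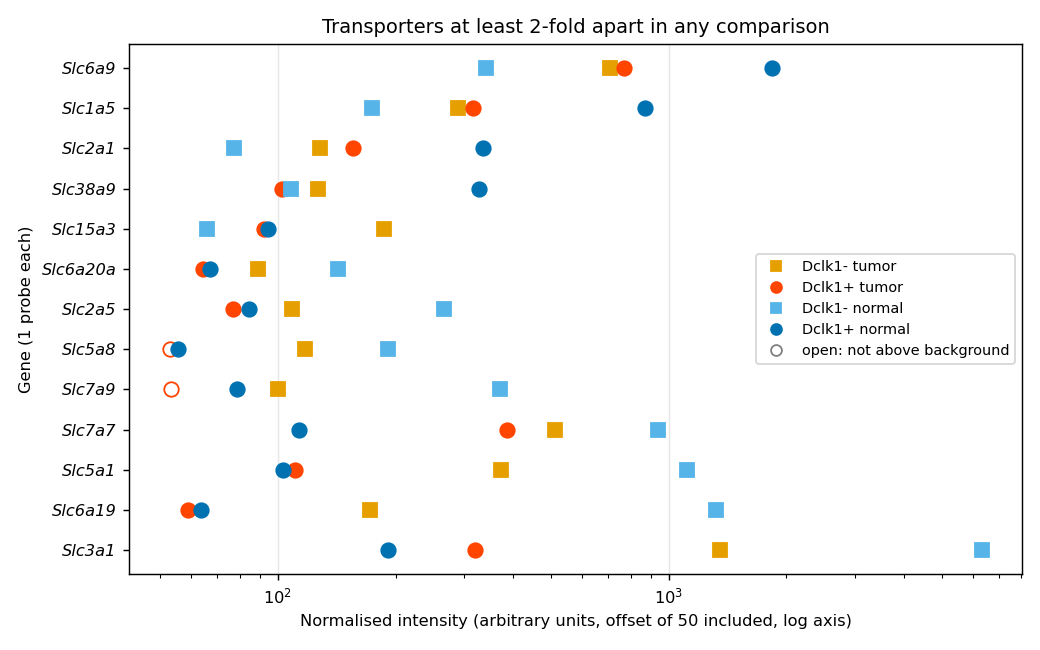
Normalised intensity (horizontal log axis, arbitrary units) of the 13 transporters called in at least 1 comparison, 1 point per array; squares are Dclk1- and circles Dclk1+ cells, and open symbols were not above background. The Dclk1- normal array is the highest for 8 genes from Slc3a1 up to Slc6a20a, and the Dclk1+ normal array for Slc38a9, Slc2a1, Slc1a5 and Slc6a9.

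In normal epithelium, 8 carriers, most of them known from the absorptive enterocyte, stood lower in Dclk1+ than in Dclk1- cells, and 4 carriers of cell nutrition and nutrient sensing stood higher. Of 70 members above background on either array, 8 were at least 2-fold lower (11.4%), against 5.92% of all 12845 genes, and 4 were higher (5.71%), against 5.66% of all genes, a share near that background. At least 4-fold lower were 5 members, against 2.16% of all genes, and 3 were at least 4-fold higher, against 1.61%. The members' median difference was -0.00 on the log2 scale, beside 0.01 over all genes.

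The amino acid carriers of the brush border led the lower side. Slc3a1, the heavy chain of the cystine and basic amino acid exchanger, read 6334 and 191 in Dclk1- and Dclk1+ normal cells, and 1351 and 320.1 in the matching tumor cells. It was thus 33.2-fold lower in Dclk1+ than in Dclk1- normal cells (log2 difference -5.05), the widest gap of all members on this scale. Slc7a9, the light chain that Slc3a1 carries to the membrane, read 369 and 78.7 in Dclk1- and Dclk1+ normal cells and 99.8 in Dclk1- tumor cells; its Dclk1+ tumor spot (53.1) did not clear the background. Its difference in normal epithelium was -2.23. Both subunits had their highest array in Dclk1- normal cells and both Dclk1+ arrays below both Dclk1- arrays.

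Slc6a19, the neutral amino acid carrier, read 1326 and 63.6 in Dclk1- and Dclk1+ normal cells and 172 and 59.0 in the matching tumor cells, a 20.8-fold gap in normal epithelium (-4.38). Both Dclk1+ values lie close to the reading of an empty probe. On the Dclk1- normal array its local background, the brightness around the spot, was 741 beside a spot of 1412 in scanner units, and with that background subtracted the difference was -2.93. Slc6a19os, on the opposite strand, did not share this pattern and read 60.7 in Dclk1- and 61.0 in Dclk1+ normal cells. Slc6a20a, a proline carrier of the same family, read 143 in Dclk1- and 67.0 in Dclk1+ normal cells (-1.09). The array's own name for that probe is Xtrp3s1, and the probe named Slc6a20, which maps to Slc6a20b, read 56.3 and 56.4, so the gap shows at 1 probe of these near-identical genes. With the local background subtracted, the difference of Slc6a20a in normal epithelium was -0.82, short of 2-fold.

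On the basolateral side, Slc7a7, the light chain of the basic amino acid exporter, read 938 in Dclk1- and 113 in Dclk1+ normal cells, an 8.28-fold gap (-3.05; -1.61 with the local background, 666 beside a spot of 988 in Dclk1- cells, subtracted). Slc3a2, its heavy chain and also that of Slc7a5, read 124 and 68.4, which did not reach 2-fold (-0.86). The peptide carrier Slc15a1 was above background in Dclk1- normal cells only (79.7), which makes it at least 1.47-fold lower in Dclk1+ normal cells. The glutamate carrier Slc1a1 read 73.6 against 55.0 there (-0.42).

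The sugar carrier families Slc2a and Slc5a together had 21 genes above background in normal epithelium. Of these, 3 were lower (14.3%), against 5.92% of all genes. Higher was 1, Slc2a1 (4.76%), against 5.66%, a share near that background. Slc5a1, the sodium-coupled glucose carrier of the brush border, read 1117 and 103 in Dclk1- and Dclk1+ normal cells and 371 and 110.5 in the matching tumor cells, a 10.9-fold gap in normal epithelium (-3.44). Slc2a5, the fructose carrier, read 266 and 84.3 in Dclk1- and Dclk1+ normal cells and 109 and 76.6 in the matching tumor cells (-1.66 in normal epithelium). Both Dclk1+ arrays lay below both Dclk1- arrays for these 2 genes. Slc5a8, which carries short monocarboxylates such as lactate and butyrate, read 192 in Dclk1- and 55.3 in Dclk1+ normal cells (-1.79). The basolateral glucose carrier Slc2a2 was dim, with 75.3 and 55.3, and its difference of -0.45 did not reach 2-fold, although in the authors' deposited table it stood 6.96-fold lower in Dclk1+ cells. Of 10 Slc5a genes above background in normal epithelium, 2 were lower and 0 higher, with a family median of -0.43. Of 11 Slc2a genes, 1 was lower and 1 higher, with a median of 0.04. A count of 1 in 11 is near the share over all genes.

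On the higher side of the normal comparison stood Slc6a9, the glycine carrier, which read 1837 and 341 in Dclk1+ and Dclk1- normal cells and 767 and 708 in the matching tumor cells (5.39-fold higher in Dclk1+ normal cells, 2.43). Slc1a5, the glutamine carrier, read 870.45 and 174 in normal Dclk1+ and Dclk1- cells, and 316 and 289 in tumor (4.99-fold, 2.32). Slc2a1, the glucose carrier of most growing cells, read 336 and 77.1 in normal Dclk1+ and Dclk1- cells, and 156 and 128 in tumor (4.35-fold, 2.12). Slc38a9, the lysosomal arginine sensor of the mTORC1 pathway, read 328 and 108 in normal Dclk1+ and Dclk1- cells, and 103 and 127 in tumor (3.04-fold, 1.61). For all 4 genes the Dclk1+ normal array was the highest of the 4, and for the first 3 the Dclk1- normal array was the lowest. The differences of these 4 genes in normal epithelium stayed past 2-fold under every alternative listed in the closing section. Among those, the filter settings and probe means cannot change a difference.

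The start regions of members called at least 4-fold in normal epithelium are shown for the genes with a single RefSeq start, as they stand on both sides of that comparison: Slc3a1, Slc6a19 and Slc5a1 on the lower side and Slc2a1 on the higher. Each run is the 250 bases before the annotated start, 5′ to 3′ along the gene (RefSeq, GRCm38.p6), with capitals on any match, on either strand, to the HNF4 site CAAAGTNCA, the HNF1 core GTTAAT, the E-box CACGTG, the amino acid response element TGATGNAA or the GC box GGGCGG.
Slc3a1, chr17:85028097-85028346, plus strand: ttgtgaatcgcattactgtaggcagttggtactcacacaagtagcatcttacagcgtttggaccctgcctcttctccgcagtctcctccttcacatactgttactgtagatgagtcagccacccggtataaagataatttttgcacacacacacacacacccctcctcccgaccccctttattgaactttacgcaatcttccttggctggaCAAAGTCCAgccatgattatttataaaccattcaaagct
Slc6a19, chr13:73692637-73692886, minus strand: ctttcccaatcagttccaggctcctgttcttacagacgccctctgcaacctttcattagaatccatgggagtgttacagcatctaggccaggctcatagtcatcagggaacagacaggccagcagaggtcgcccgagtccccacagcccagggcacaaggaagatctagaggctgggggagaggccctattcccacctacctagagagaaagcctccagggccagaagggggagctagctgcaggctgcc
Slc5a1, chr5:33103969-33104218, plus strand: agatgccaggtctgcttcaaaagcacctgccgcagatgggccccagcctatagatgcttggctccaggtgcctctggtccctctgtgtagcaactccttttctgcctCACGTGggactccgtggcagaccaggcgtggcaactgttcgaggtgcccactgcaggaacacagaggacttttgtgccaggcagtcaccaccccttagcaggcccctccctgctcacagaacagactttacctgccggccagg
Slc2a1, chr4:119108495-119108744, plus strand: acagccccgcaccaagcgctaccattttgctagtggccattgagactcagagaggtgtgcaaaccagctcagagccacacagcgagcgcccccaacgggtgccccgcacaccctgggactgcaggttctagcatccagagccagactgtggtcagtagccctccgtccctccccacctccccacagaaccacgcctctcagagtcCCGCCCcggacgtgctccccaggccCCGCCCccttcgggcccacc
Slc3a1 holds 1 HNF4 match, its first base at -39 from the start, which 1.19% of all 32851 such windows hold. Slc5a1 holds 1 E-box match, and 6.02% of windows hold at least 1. Slc2a1 holds 2 GC boxes, and 32.7% of windows hold at least 1. Slc6a19 holds no match to these letters. Of the 87 members, 64 have a window in the RefSeq table, and 42 of their 87 windows (48.3%) hold a GC box. Among the called genes, GC boxes were found in 4 of the 8 lower genes (Slc2a5, Slc5a8, Slc6a20a and Slc7a7) and in all 3 higher genes with a window (Slc2a1, Slc38a9 and Slc6a9). The lower genes also held the HNF1 core in Slc6a20a and Slc7a7 and the amino acid response element in Slc7a7. A gene counted if any of its windows held the motif, so these counts cannot be set against the shares of windows. No letters of 1 motif overlap another in the runs printed, and a match is a description of letters only.

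The marker lists of the sorted cells moved with these results. In this comparison 5.66% of all genes were higher and 5.92% lower. Tuft markers were higher in Dclk1+ normal cells for 12 of 13 genes above background, with a summed intensity of 50595 against 998. Enterocyte markers were lower in 6 of 10 and higher in 1, and their sum was 50515 in Dclk1+ against 79210 in Dclk1- normal cells. Within that list Krt20 read 328 against 21383 and Apoa4 86.2 against 3159, whereas the fatty acid binding protein Fabp1 was the higher gene with 36993 against 12204. Goblet markers were lower in 6 of 6 genes, Paneth markers in 4 of 4, enteroendocrine markers in 7 of 9 and proliferation markers in 3 of 5. Myeloid markers were higher in 2 of 7. In such sorted bulk samples, fewer cells of a type and less RNA per cell cannot be told apart, and the part of cell makeup in the transporter differences was not tested. T and NK, B and plasma, fibroblast and endothelial markers had 0 genes called in either direction in this comparison.

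In tumors, the same comparison gave 5 lower members of 53 above background (9.43%), against 2.13% of all 12200 genes, and 0 higher, against 1.76%. In Dclk1+ cells Slc3a1 was 4.22-fold lower (-2.08), the 1 member past 4-fold, against 0.287% of all genes. Slc5a1 was at -1.75 and Slc6a19 at -1.55. Slc5a8, at 117 in Dclk1- tumor cells, did not clear the background in Dclk1+ tumor cells and was so at least 2.14-fold lower. These 4 genes were also called lower in normal epithelium. The fifth was Slc15a3, a lysosomal peptide and histidine carrier of immune cells, with 186 and 92.3 in Dclk1- and Dclk1+ tumor cells and 65.8 and 94.1 in normal cells (-1.01 in tumor). Slc7a9 was at least 1.82-fold lower in Dclk1+ tumor cells.

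These tumor calls depend on how the background is treated. When the local background around each spot was subtracted, 0 members were lower and 1 was higher, Slc7a6os at 1.68, which is no carrier. Slc3a1 was then at -0.85, Slc5a1 at -0.60, Slc15a3 at -0.44 and Slc5a8 at -0.11, and Slc6a19 changed sign to 0.08. On the Dclk1- tumor array the local background was 161 beside a spot of 166 for Slc6a19, 332 beside 382 for Slc5a1 and 1051 beside 1398 for Slc3a1. On that array it was also 91.3 beside 99.0 for Slc5a8 and 150 beside 182 for Slc15a3. On the Dclk1- normal array it was 71.6 beside 6496 for Slc3a1. Local background was high on every array. Its median over members above background was 70.0% of the spot in Dclk1- tumor and 69.7% in Dclk1+ tumor cells. In Dclk1- and Dclk1+ normal cells it was 67.4% and 71.5%. The part of local background in these values was not tested further. In the authors' deposited table the median over all genes lay at 0.35 in this comparison. There Slc6a19 stood 17.2-fold and Slc5a1 4.70-fold lower in Dclk1+ tumor cells. That source gave 14 lower and 7 higher members. No share over all genes was counted with it or with local background subtraction.

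**Figure D3:**
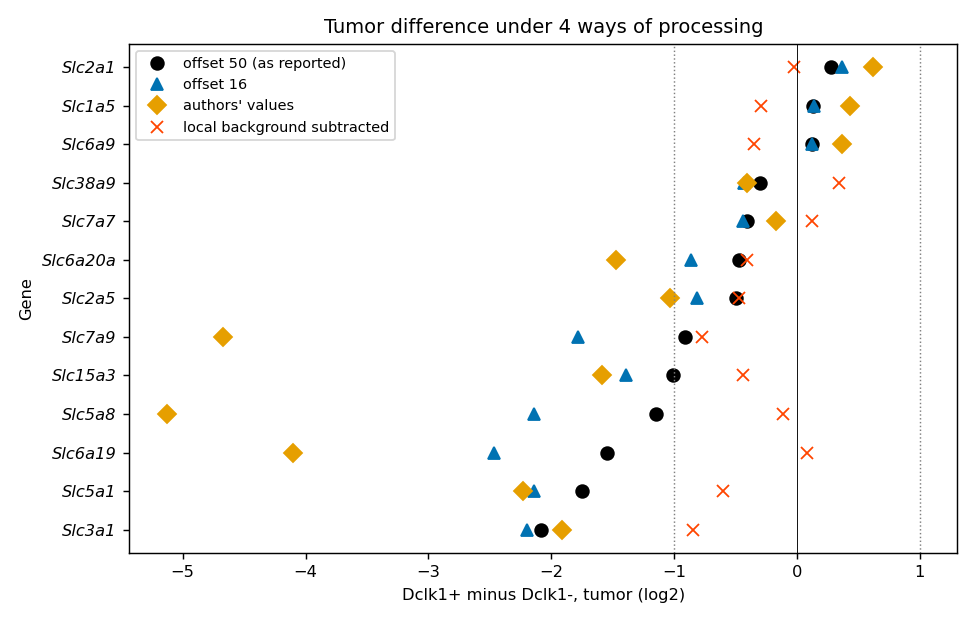
Log2 difference of Dclk1+ minus Dclk1- tumor cells for the 13 called transporters (1 array per group), as reported and under 3 other ways of processing; dotted lines mark 2-fold. With the local background subtracted every gene lies within 2-fold, and the authors' values (empty cells filled with that column's minimum) reach furthest for Slc5a8, Slc7a9 and Slc6a19.

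The 4 genes higher in normal Dclk1+ cells did not show the gap in tumor. Slc6a9 was at 0.12, Slc1a5 at 0.13, Slc2a1 at 0.28 and Slc38a9 at -0.30 there. Slc7a7 (387 against 512) was at -0.41 against -3.05 in normal epithelium. Whether these gaps differ between tumor and normal epithelium was not tested, as there are no replicates. Tuft markers were higher in 10 of 12 genes in Dclk1+ tumor cells (sum 17413 against 1081) and enterocyte markers lower in 6 of 10, with a sum of 16526 against 22436. Goblet markers were lower in 4 of 6 and Paneth markers in 3 of 4. Over all genes 1.76% were higher and 2.13% lower in this comparison. Myeloid markers, which bear on Slc15a3, were lower in 4 of 7, with a sum of 1745 in Dclk1+ against 4561 in Dclk1- tumor cells; C1qb read 663 against 1788, while Adgre1, a defining macrophage marker, was not above background on any array. The part of myeloid cells in the Slc15a3 value was not tested.

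**Figure D4:**
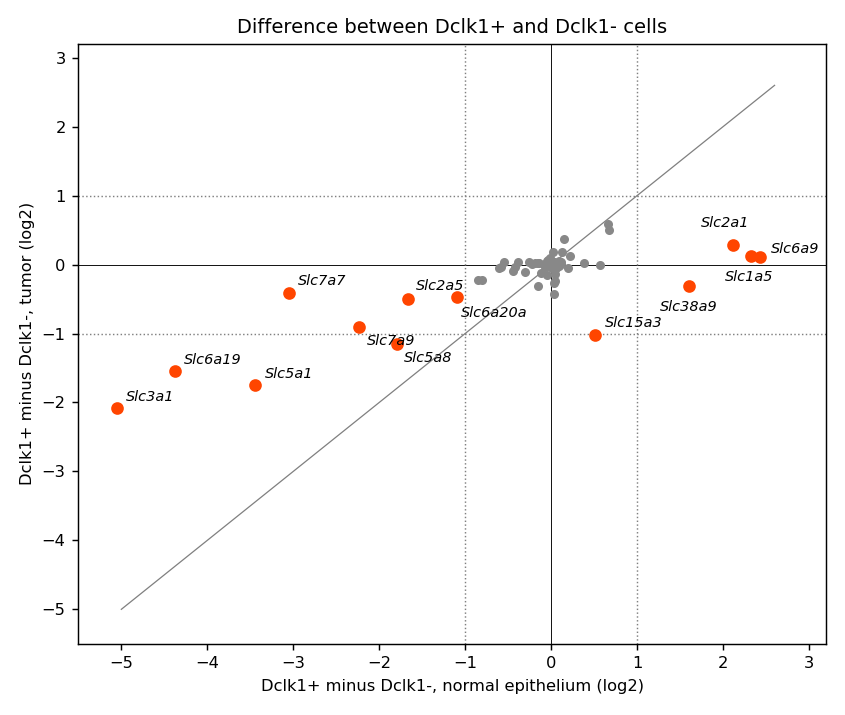
Log2 difference of Dclk1+ minus Dclk1- cells in normal epithelium (horizontal) and tumor (vertical) for transporters above background in either pair, 1 point per gene; orange points are the 13 called genes, dotted lines mark 2-fold and the grey diagonal marks equal differences. Slc3a1 lies at -5.05 and -2.08, and Slc6a9, Slc1a5, Slc2a1 and Slc38a9 lie past 1 in normal epithelium and between -0.30 and 0.28 in tumor.

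Set against normal Dclk1+ cells, tumor Dclk1+ cells had lower signals for the 4 carriers that were called higher in normal Dclk1+ cells. The Dclk1+ normal array enters both comparisons, so they are not independent. Of 64 members above background, 4 were lower (6.25%), against 4.2% of all 12870 genes, a share near that background. Higher was 1 (1.56%), against 4.27%. Lower were Slc38a9 (-1.68), Slc1a5 (-1.46), Slc6a9 (-1.26) and Slc2a1 (-1.11), and 0 members were past 4-fold in either direction, against 1.17% higher and 0.42% lower over all genes. With the local background subtracted Slc2a1 was at -0.61, and 2 members were higher (Slc7a7, and Slc3a1 at 1.14) and 3 lower. The single higher member was Slc7a7, 3.41-fold higher in tumor (387 against 113, 1.77). Slc3a1 was 1.68-fold higher in tumor (0.75), and Slc5a1, Slc6a19, Slc2a5 and Slc6a20a lay between -0.14 and 0.10. Slc7a9, the partner of Slc3a1, was at least 1.44-fold lower in tumor. Slc7a5, the carrier of large neutral amino acids, read 149.9 in Dclk1+ tumor and 88.7 in Dclk1+ normal cells (0.76), below 2-fold. The authors' deposited table gave 3 higher and 31 lower members here, with a median over all genes of -0.40. Shares over all genes were not counted with that table or with local background subtraction. In this pair tuft markers were lower in tumor for 9 of 13 genes and higher for 1 (median -1.56; sum 17413 against 50595), and enterocyte markers lower for 3 of 9. Paneth markers were higher for 3 of 4 genes, proliferation markers for 3 of 5 and goblet markers for 2 of 6. Their part in the transporter values was not tested.

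Between Dclk1- tumor and Dclk1- normal cells 5 absorptive carriers were lower in tumor; the Dclk1- normal array is the same one as in the normal comparison. Of 67 members above background, 5 were lower (7.46%), against 5.24% of all 12342 genes, a share near that background. Higher were 2 (2.99%), against 5.83%. Slc6a19 was 7.69-fold lower (-2.94) and Slc3a1 4.69-fold lower (-2.23), the 2 members past 4-fold, against 1.3% of all genes. Slc7a9 was at -1.89, Slc5a1 at -1.59 and Slc2a5 at -1.30, the last at -0.99 with the local background subtracted. Slc7a7 (-0.87), Slc5a8 (-0.71) and Slc6a20a (-0.68) lay on the same side within 2-fold, and Slc5a8 passed it, at -1.15, with the local background subtracted. Higher in tumor were Slc15a3 (2.83-fold, 1.50; 0.43 with the local background subtracted) and Slc6a9 (2.08-fold, 1.05; 0.92 in the authors' values). Local background subtraction gave 1 higher and 6 lower members, and the values of the authors' deposited table gave 7 higher and 32 lower. In that table the median over all genes lay at -0.50 in this comparison. Shares over all genes were not counted under either alternative.

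Other lists moved in this pair as well, where 5.83% of all genes were higher and 5.24% lower in tumor. Enterocyte markers were lower in tumor for 7 of 10 genes and 0 were higher (sum 22436 against 79210), and myeloid markers higher for 6 of 7 (sum 4561 against 924). Enteroendocrine markers were lower for 8 of 9 genes (median -3.02) and goblet markers for 4 of 6, while Paneth markers were higher for 2 of 4. What these lists contribute to the transporter values was not tested. In both cell populations the tumor and normal samples also differ in age and in the ApcMin allele of the mice. The Dclk1+ samples differ in the number of pooled mice too (7 in tumor, 2 in normal). These differences and histology cannot be told apart. Within a tissue, the Dclk1+ and Dclk1- samples also differ in the number of mice. It was 7 against 1 in tumor and 2 against 1 in normal epithelium. Sort and mice cannot be told apart there.

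**Figure D5:**
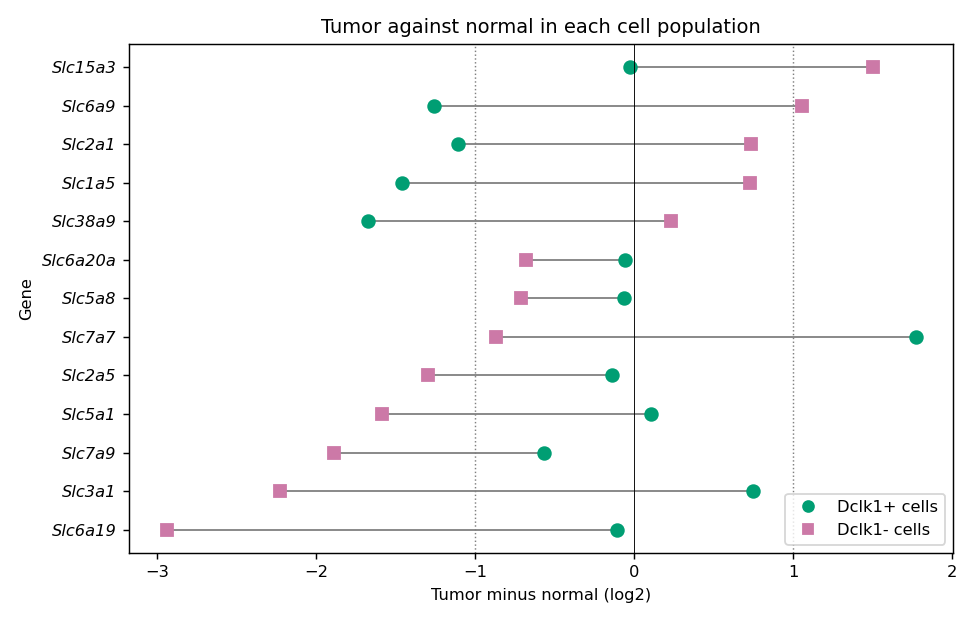
Log2 difference of tumor minus normal for the 13 called transporters in Dclk1+ cells (circles) and Dclk1- cells (squares), 1 array per group; a line joins the 2 values of a gene and dotted lines mark 2-fold. Slc6a9 lies at -1.26 in Dclk1+ and at 1.05 in Dclk1- cells, and Slc6a19 at -0.11 and -2.94.

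The remaining 61 genes above background on at least 1 array stayed within 2-fold in all 4 comparisons. In normal epithelium they ran from -0.86 (Slc3a2) to 0.67 (Slc15a2), and in tumor from -0.42 (Slc38a5) to 0.59 (Slc7a6os). Slc6a8, the creatine carrier, read lower on both tumor arrays without reaching 2-fold (-0.53 in Dclk1+ and -0.70 in Dclk1- cells), with 1564 and 1782 in Dclk1- and Dclk1+ tumor cells and 2539.6 and 2569 in normal cells. Slc7a5 read 147 and 149.9 in Dclk1- and Dclk1+ tumor against 98.5 and 88.7 in normal epithelium. With no local background subtracted, the tumor arrays were thus the higher ones without reaching 2-fold. In scanner units, however, its Dclk1- tumor spot of 135 lay beside a local background of 116. The Dclk1- normal spot of 73.0 lay beside 30.4. Slc15a2 did not clear the background in Dclk1- tumor cells, read 73.6 in Dclk1+ tumor cells, and read 79.5 and 127 in Dclk1- and Dclk1+ normal cells. Slc7a11, the cystine-glutamate exchanger, and Slc38a2, a glutamine carrier induced by amino acid shortage, read 57.2 or less on every array, close to an empty probe. A carrier this dim can differ 2-fold without being called on this scale.

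The genes around these carriers were read from lists of brush border partners, glycolysis and amino acid use. Over all genes, 5.66% were higher and 5.92% lower in Dclk1+ than in Dclk1- normal cells, and 1.76% and 2.13% in tumor. For tumor against normal, 4.27% were higher and 4.2% lower in Dclk1+ cells, and 5.83% and 5.24% in Dclk1- cells. Of 14 brush border partner and digestion genes above background, 7 were lower in Dclk1+ than in Dclk1- normal cells and 0 higher (median -0.72), led by the peptidase Dpp4 (67.6 against 673, -3.31) and the fructose kinase Khk (1036 against 7783, -2.91), which acts after Slc2a5. In tumor 0 of 14 were called in either direction (median -0.19). Tumor against normal Dclk1- cells gave 7 lower and 0 higher, with the lactase gene Lct at -2.66 and the scaffold Pdzk1 at -2.03.

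Glycolysis genes were split in normal epithelium, with 3 of 16 higher and 2 lower in Dclk1+ cells, against 5.66% and 5.92% of all genes. Aldoa (1.21), Pkm (1.03) and the lactate exporter Slc16a3 (1.03) were higher beside Slc2a1, and the hexokinase Hk2 was lower (152 against 1039, -2.77), as was Tpi1 (-1.55). For tumor against normal, Hk2 was the 1 higher gene of this list in both cell types, at 3.39 in Dclk1+ cells (1593 against 152) and 1.54 in Dclk1- cells. Each cell type had 1 lower gene (Slc16a3 at -1.07 and Pfkp at -1.46). A count of 1 in 16 is near the share over all genes. That share was 4.27% higher and 4.2% lower in Dclk1+ cells, and 5.83% and 5.24% in Dclk1- cells.

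Of 24 amino acid response and use genes, 5 were lower and 0 higher in Dclk1+ normal cells, against 5.92% and 5.66% of all genes. The lower ones were led by the alanine aminotransferase Gpt (329 against 4108, -3.64) and the cystathionine lyase Cth (-3.07). Tumor against normal gave 3 higher and 1 lower in Dclk1+ cells, against 4.27% and 4.2% of all genes. In Dclk1- cells it gave 4 higher and 4 lower, against 5.83% and 5.24%. The asparagine synthetase Asns was among the higher ones in both, at 2.33 and 1.90, as was the aspartate aminotransferase Got2, at 1.44 and 1.30. The lower genes in Dclk1- cells were Ddit3 (-2.50), Cth (-2.11), Gpt (-2.10) and Got1 (-1.01). In Dclk1+ cells the lower gene was Got1 (-1.09).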

How the data were processed

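RNA of 4 sorted samples was amplified with an amino allyl kit and labelled with Cy5, per the labels' protocols. Per the file headers, the scanner intensity is the median brightness of a spot, with its local background beside it, joined from several gains by straight lines and with nothing subtracted. In the authors' deposited table the intensity values are linear, dim probes are empty (5968 to 7943 of 23473), and the filled cells have medians of 24.99, 25.0, 25.01 and 25.0; how it was scaled stays unstated, and it served as an alternative.

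Spot intensities were corrected with normexp (limma 3.58.1, R 4.3.3, offset 50, local background not used), control and flagged spots were dropped, and 23473 probes were quantile normalised. Symbols were updated through RefSeq GRCm38.p6 names: 79 member probes carried the current symbol and 8 a synonym of 1 gene. Probes of near-identical genes can bind each other's RNA. A gene above background on 1 array of a pair only is given as at least N-fold against the lowest signal above background. The alternatives were an offset of 16, subtraction of the blank mean, local background subtraction, median and 75th percentile scaling, the authors' values, no filter, a 3 SD filter and probe means. The code was tested on simulated data. Every member called or with a bound past 2-fold was named with values, as was most of a list of textbook carriers. Of that list, Slc7a1, Slc36a1 and Slc5a4b were named without values. Slc2a3, Slc5a4a, Slc6a6, Slc6a14, Slc7a8, Slc38a1, Slc43a1 and Slc43a2 were left out above, and none was called. Slc5a4a read 83.5 in Dclk1- and 54.9 in Dclk1+ normal cells, and stood 10.7-fold apart in the authors' deposited table. Other genes named with values, such as Slc6a8, Slc15a2, Slc38a5, Slc6a20b, Slc6a19os and the list genes, were chosen after their values were seen. Members and lists were chosen with earlier results of these data known.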

Additional observations from a re-analysis of the deposited data

Results flagged for a closer look

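6 values stood out because the same contrast ran in opposite directions in 2 settings, by at least 0.5 on the log2 scale in each and at least 2-fold in 1. None of these differences could be tested, since each group has 1 array. For tumor minus normal, Slc1a5 was at -1.46 in Dclk1+ and 0.73 in Dclk1- cells, a difference of -2.19. Slc6a9 was at -1.26 and 1.05 (-2.31), the 1 gene past 2-fold on both sides. Slc2a1 was at -1.11 and 0.73 (-1.84). Slc7a7 ran the other way, at 1.77 in Dclk1+ and -0.87 in Dclk1- cells (2.64), as did Slc3a1 at 0.75 and -2.23 (2.98). For Dclk1+ minus Dclk1-, Slc15a3 was at -1.01 in tumor and 0.52 in normal epithelium (-1.53). Part of this depends on the processing. With the local background subtracted, Slc15a3 was at -0.44 in tumor and 0.30 in normal epithelium. Slc2a1 was then at -0.61 in Dclk1+ cells, and neither gene met the rule. Slc6a9 (-1.16 in Dclk1+ and 1.24 in Dclk1- cells) and Slc3a1 (1.14 and -3.31) still did.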

How the results depend on the processing

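Counts of called members are given in the order higher then lower for Dclk1+ against Dclk1- in tumor and in normal epithelium, then for tumor against normal, Dclk1+ before Dclk1-. As reported they were 0 and 5, 4 and 8, 1 and 4, and 2 and 5. Shares over all genes were counted for the reported processing only, so the other counts have none beside them. Median scaling, 75th percentile scaling, no filter, the 3 SD filter and probe means gave the same counts. Each member has 1 probe, so probe means could not differ. The filter settings likewise leave each difference unchanged. An offset of 16 gave 1 and 6, 6 and 13, 2 and 6, and 3 and 10. Subtracting the blank mean gave 6 and 17, 13 and 23, 5 and 23, and 10 and 30. The authors' values gave 7 and 14, 15 and 22, 3 and 31, and 7 and 32. Local background subtraction gave 1 and 0, 4 and 7, 2 and 3, and 1 and 6, with Slc6a19 in tumor at 0.08 against -1.55. The cause was not tested. Of 29 called values of named genes, 19 kept their direction and stayed past 2-fold under all alternatives that gave a value; 9 fell short of 2-fold under at least 1 and 1 changed sign. The median over all genes moved to 0.35, 0.27, -0.40 and -0.50 with the authors' values, to 0.13 and 0.14 in the first 2 comparisons with 75th percentile scaling, and to -0.17 and -0.15 in the last 2 with blank subtraction. The offset hides changes of dim carriers. No paired analysis was possible because each group has 1 array.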
